A study of Oryctolagus cuniculus with 6 samples.

Results

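The genes described here encode the enzymes that chemically modify foreign compounds and many natural lipids, measured in rabbit tracheal mucosa after exposure to an over-inflated tube cuff. They were chosen by symbol alone and comprise cytochrome P450s (CYP), flavin-containing monooxygenases (FMO), aldehyde dehydrogenases (ALDH), glutathione S-transferases (GST), UDP-glucuronosyltransferases (UGT), sulfotransferases (SULT), carboxylesterases (CES) and the deacetylase AADAC. The rule gave 85 of the 29587 genes in the deposited table, 77 of which had at least 1 read.

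The animals were New Zealand rabbits aged 3 months. In the high cuff pressure group, a 3.0 mm tracheal tube was placed 13 cm deep and its cuff was kept at 35 cmH2O for 2 h (3 libraries). The control group had 3 libraries. The handling of these animals and the time of tissue sampling are unknown here. The material was polyA RNA from tracheal mucosa, labelled as epithelial cells, and all libraries carried the same batch label. The labels give n = 3 for each group without saying more about the replicates, so the tests rest on the spread among these 6 libraries, which may be partly technical.

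Foreign compounds are usually handled in 2 steps. In phase I, P450s and FMOs introduce oxygen, with electrons that P450s of the endoplasmic reticulum receive from the reductase POR, while ALDHs oxidise aldehydes and esterases cut esters and amides. In phase II, transferases attach glutathione, glucuronate or sulfate, which makes the products easier to excrete. In the airway much of this activity is known from non-ciliated secretory (club) cells, and rabbit lung is a classical source of CYP2B4, CYP4B1 and FMO2 protein.

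Library totals ranged from 10501734 to 14415754 counts. Mitochondrial transcripts took 27.8 to 30.5% of counts in high cuff pressure libraries and 5.28 to 11.5% in control libraries. High cuff pressure replicate 1 stood apart from the other 5 libraries on the second axis of a multidimensional scaling of all genes (68.9, the others between -43.1 and 10.9). Ciliated and basal cell markers were present in every library, and so were smooth muscle markers (473 to 7024 CPM in sum with high cuff pressure, 5235 to 8882 CPM in control), so the material was not epithelium alone. In such bulk tissue, fewer cells of a type and less RNA per cell cannot be told apart.

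In mucosa exposed to high cuff pressure, enzyme transcripts took up less of the library. They made up 0.547%, 0.622% and 0.400% of all counts in high cuff pressure replicates 1, 2 and 3, and 1.78%, 2.95% and 1.51% in control replicates 1, 2 and 3. The 3 high cuff pressure libraries all lay below the 3 controls, also when mitochondrial counts were left out of the total (0.735 ± 0.159% against 2.25 ± 0.769%, SD, n = 3 each). CYP2A10 and CYP2F1 alone held 2.48%, 13.1% and 2.87% of the enzyme counts with high cuff pressure, and 40.6%, 54.7% and 20.7% in control. The other 83 genes together made up 0.768%, 0.748% and 0.540% of non-mitochondrial counts with high cuff pressure, and 1.19%, 1.41% and 1.29% in control, again without overlap. The difference in the total was thus not confined to the 2 most abundant P450s.

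**Figure D1:**
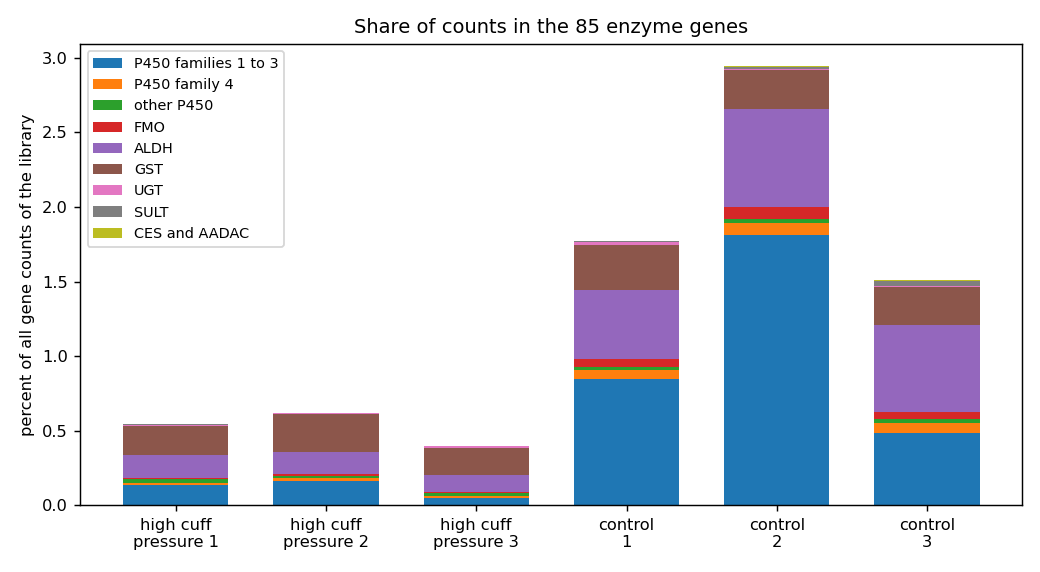
Percent of all gene counts taken by the 85 enzyme genes, stacked by family, in each of the 3 high cuff pressure and 3 control libraries. High cuff pressure libraries reach 0.400 to 0.622% and control libraries 1.51 to 2.95%, of which the P450 families 1 to 3 take 0.0512 to 0.162% and 0.483 to 1.81%. The GST band differs less (0.184 to 0.256% and 0.257 to 0.303%), though each high cuff pressure library is below each control. All counts include mitochondrial transcripts.

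The design sets mucosa under an over-inflated cuff against control mucosa. Of the 85 genes, 64 had enough reads to be tested. Transcripts of 9 were lower with high cuff pressure and of 0 higher in edgeR's quasi-likelihood test, at a Benjamini-Hochberg adjusted p under 0.05 over all 13724 genes tested. Over all genes tested, 1.62% were called lower and 3.67% higher. The 9 were the P450s CYP2A10, CYP2C2 and CYP4B1, the monooxygenase FMO2, the aldehyde dehydrogenases ALDH1A1, ALDH2 and ALDH6A1, the transferase GSTA5 and the deacetylase AADAC. At an unadjusted p under 0.05, 23 enzyme genes were lower and 3 higher, beside 13.6% and 15.6% of all genes. The median log2 fold change of the 64 was -0.68, against -0.01 for all genes tested. The high cuff pressure libraries lay entirely below the controls for 27 of the 64, where 18.7% of all genes did so, and entirely above for 4, where 18.6% did so.

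The number of calls depended on single libraries. It was 13 lower and 1 higher without high cuff pressure replicate 1, the library that stood apart. Calls over all genes also rose in that fit, to 1261 lower and 1362 higher of 14064 tested. In the main fit they were 222 lower and 503 higher of 13724. The enzyme calls were 5 lower (ALDH1A1, ALDH2, ALDH6A1, CYP4B1 and FMO2) with high cuff pressure replicate 3 omitted. Only FMO2 passed without control replicate 1. With high cuff pressure replicate 2, control replicate 2 or control replicate 3 omitted, 0 passed. The median log2 fold change stayed between -0.77 and -0.60 in these 6 fits. DESeq2 called 18 lower and 3 higher and limma-voom 8 lower and 0 higher, and the fit without mitochondrial genes called the same 9. Over all 13724 genes tested, DESeq2 called 1170 lower and 1461 higher, and limma-voom 303 lower and 520 higher. In the authors' deposited table, 15 of the 76 enzyme genes listed had q under 0.05 and a lower mean FPKM with high cuff pressure, and 0 a higher one, beside 3.67% and 5.23% of all genes listed. All 9 genes named above were among those 15.

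**Figure D2:**
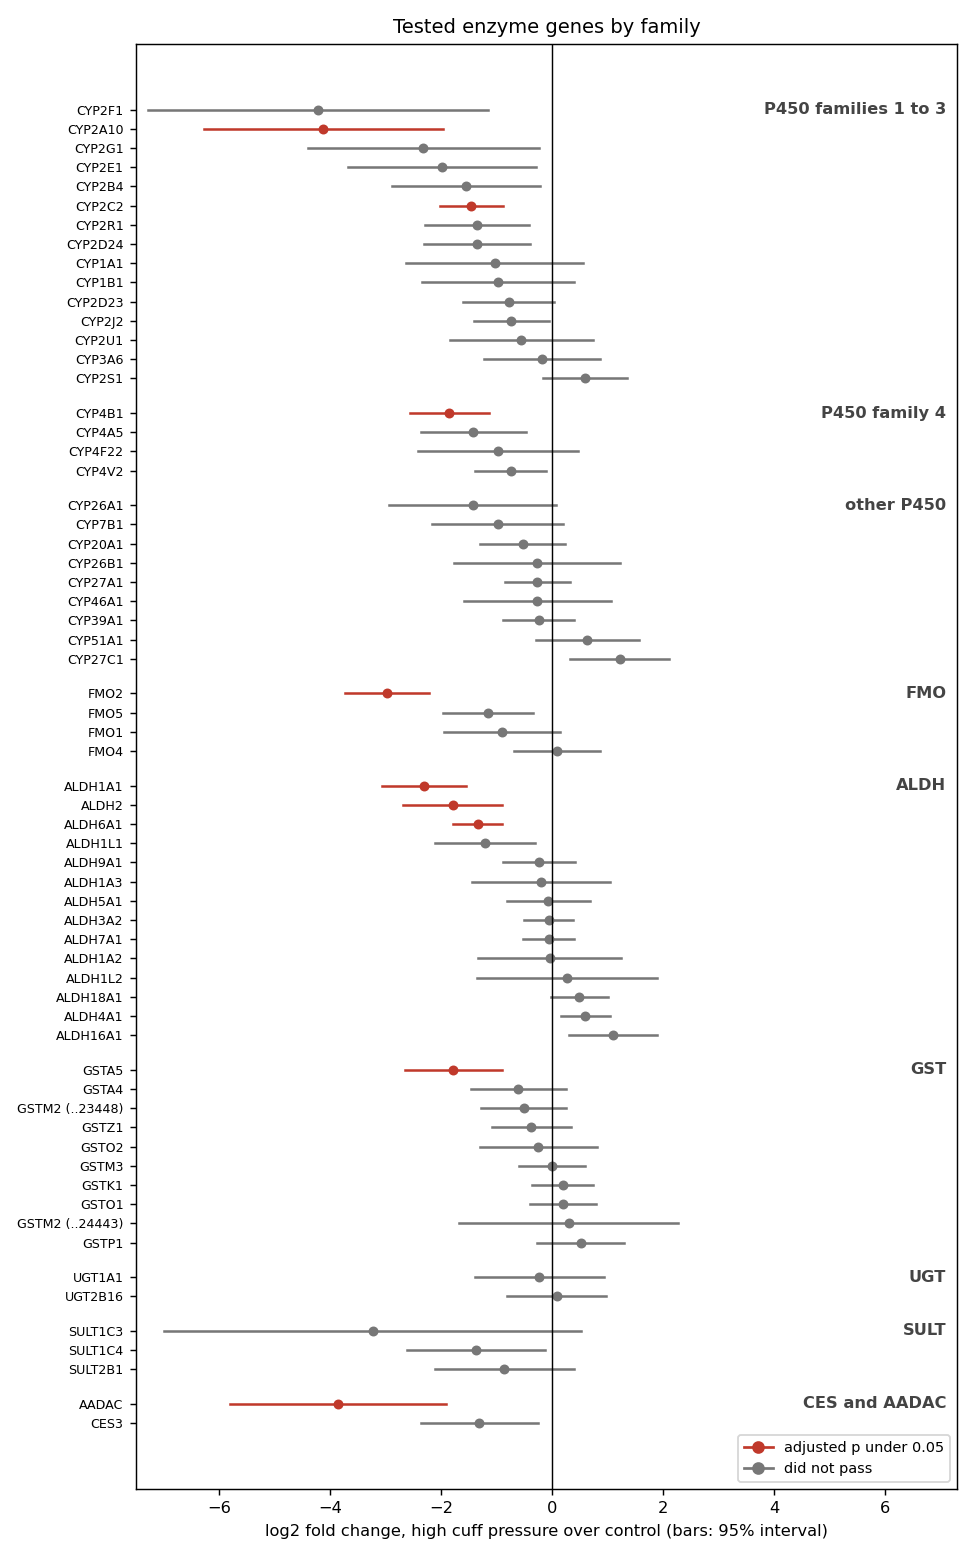
Log2 fold change, high cuff pressure over control, of the tested enzyme genes shown here, grouped by family, with 95% intervals from the edgeR fit (n = 3 per group) and red for adjusted p under 0.05. All 9 red points lie left of 0, the P450 families 1 to 3 lie left of 0 for 14 of 15 genes, and the GST and ALDH genes scatter on both sides of 0.

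Among the P450s of families 1 to 3, which carry most drug and toxicant oxidation, 15 of 18 genes were tested, 2 were lower and 0 higher, with 9 below and 0 above at an unadjusted p under 0.05. Their median log2 fold change was -1.36, and 14 of the 15 values were negative. CYP2A10, a P450 of the CYP2A subfamily that in rabbit is known from nasal mucosa, was the most abundant enzyme transcript of control mucosa per length. It lies on scaffold GL018789, bases 953544 to 959027. It had 135, 700.2 and 97.5 CPM (read counts scaled to a common library size after TMM normalisation) in high cuff pressure replicates 1, 2 and 3, against 6077, 8301 and 1930.5 CPM in control replicates 1, 2 and 3. Replicate 2 was the highest of each group and the groups did not overlap. The fold change was 17.5-fold lower (log2 fold change -4.13 ± 0.93 SE, adjusted p = 0.0482). With high cuff pressure replicate 2 left out the log2 fold change was -5.55. How reads shared with near-identical CYP2A genes were counted is not given, so its level is uncertain.

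CYP2F1, of a lung P450 subfamily that in mouse activates naphthalene, had 16.9, 309 and 27.7 CPM with high cuff pressure, against 919, 5003 and 668 CPM in control. High cuff pressure replicate 2 was far above its group and control replicate 2 far above the other controls, and the groups still did not overlap. Its estimate was the largest of all enzyme genes tested, yet it did not pass (log2 fold change -4.22 ± 1.32 SE, adjusted p = 0.0901). It was -6.62 with high cuff pressure replicate 2 left out and -2.76 with control replicate 2 left out.

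CYP2C2, of the CYP2C subfamily, was a low transcript with little spread. It had 8.87, 9.65 and 7.88 CPM with high cuff pressure, against 21.5, 24.1 and 27.1 CPM in control, so each high cuff pressure library was below each control. It was 2.76-fold lower (log2 fold change -1.46 ± 0.25 SE, adjusted p = 0.0274). Its row on chromosome 18 (42383100 to 42989156) spans 606 kb and may take in other CYP2C genes, and the rows of CYP2C4 and CYP2C30 held no reads.

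CYP2B4, a main P450 of rabbit lung microsomes, had 194, 298 and 64.7 CPM with high cuff pressure, against 433, 859 and 335 CPM in control. The groups did not overlap, and the log2 fold change of -1.55 ± 0.58 SE did not pass (adjusted p = 0.127). CYP3A6, of the steroid and drug oxidising CYP3A subfamily, had 993, 561 and 274 CPM with high cuff pressure, against 634, 592 and 859.7 CPM in control. High cuff pressure replicate 1 was the highest of all 6 libraries and replicate 3 the lowest, so the groups overlapped fully. Its log2 fold change was -0.19 with a 95% interval of -1.24 to 0.86, which leaves room for a change of over 2-fold in the lower direction, and it was 0.16 without high cuff pressure replicate 3. The CYP3A6 row spans 167 kb and may cover related genes.

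The CYP1 genes had few reads. CYP1A1, the best known target of the aryl hydrocarbon receptor, had 0.394, 1.41 and 1.06 CPM with high cuff pressure, against 0.598, 2.19 and 3.06 CPM in control. CYP1B1 had 0.986, 2.00 and 5.61 CPM with high cuff pressure, against 6.24, 6.31 and 4.74 CPM in control. Both overlapped between groups and neither passed (log2 fold changes -1.04 and -0.98, adjusted p = 0.343 and 0.299). With high cuff pressure replicate 3 omitted, the log2 fold change of CYP1B1 was -1.95. CYP1A2 had 0, 0 and 1 counts with high cuff pressure, against 3, 8 and 8 in control, too few for the test (ratio of TMM-scaled counts 0.0677, exact 95% counting interval 0.00163 to 0.426). That interval pools the reads of each group and leaves out the spread between libraries, so it is no test of a difference between groups.

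The other genes of these families did not pass. CYP2E1, an ethanol and small solvent oxidase, stood at 0.493, 0 and 0.303 CPM with high cuff pressure, against 1.196, 1.09 and 1.09 CPM in control, without overlap (log2 fold change -1.99, adjusted p = 0.123). CYP2R1, a vitamin D 25-hydroxylase, and CYP2D24 were also separated between groups (log2 fold changes -1.36 and -1.36, adjusted p = 0.0804 and 0.0845). CYP2J2, an arachidonic acid epoxygenase, was likewise separated (log2 fold change -0.74, adjusted p = 0.143). The positive value in these families belonged to CYP2S1, a P450 of epithelial surfaces, at 38.3, 40.4 and 24.2 CPM with high cuff pressure and 16.7, 19.7 and 31.8 CPM in control (log2 fold change 0.59, 95% interval -0.17 to 1.35).

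In P450 family 4, whose members hydroxylate fatty acids, 4 of 5 genes were tested and CYP4B1 was lower. CYP4B1, known from rabbit lung for activating 4-ipomeanol, lies on chromosome 13 (119759447 to 119779522). It had 96.6, 134 and 62.7 CPM with high cuff pressure, against 384, 338 and 339 CPM in control. The controls were close to each other and every high cuff pressure library was below them. It was 3.62-fold lower (log2 fold change -1.86 ± 0.31 SE, adjusted p = 0.0253). CYP4A5 and CYP4V2 were separated between groups and did not pass (log2 fold changes -1.43 and -0.75, adjusted p = 0.0754 and 0.125), and the CYP4A5 row of 190 kb may cover other CYP4A genes. CYP4F22 overlapped (log2 fold change -0.98).

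FMOs oxidise nitrogen and sulfur atoms, and of this family FMO2 was called lower. FMO2, the main form of rabbit lung, lies on chromosome 13 (23444092 to 23476866) and had the smallest p of all enzyme genes. It had 49.8, 71.1 and 44.0 CPM with high cuff pressure, against 437, 563 and 306 CPM in control, a wide gap between groups. It was 7.93-fold lower (log2 fold change -2.99 ± 0.33 SE, adjusted p = 0.0157), and between -3.21 and -2.76 when each library was left out.

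FMO5, which inserts oxygen beside ketones, was separated at 6.11, 3.77 and 3.49 CPM with high cuff pressure and 8.20, 9.52 and 12.1 CPM in control (log2 fold change -1.16, adjusted p = 0.0832). FMO1 overlapped (log2 fold change -0.91), and FMO4 had a log2 fold change of 0.08 with a 95% interval of -0.69 to 0.86.

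ALDHs remove reactive aldehydes. Of 14 tested genes 3 were lower and 0 higher (4 lower and 2 higher at an unadjusted p under 0.05), and the family median was -0.07. ALDH1A1, which oxidises retinal to retinoic acid, lies on chromosome 1 (59419752 to 59477893). It had 524, 568 and 359 CPM with high cuff pressure, against 2075, 2895 and 2221 CPM in control, so the highest high cuff pressure library was far below the lowest control. It was 4.96-fold lower (log2 fold change -2.31 ± 0.33 SE, adjusted p = 0.018).

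ALDH2, the mitochondrial enzyme that clears acetaldehyde, lies on chromosome 21 (7745957 to 7774303). It had 668, 601 and 271 CPM with high cuff pressure, against 1669.8, 1812 and 1879 CPM in control, with replicate 3 the lowest of the exposed libraries. It was 3.48-fold lower (log2 fold change -1.80 ± 0.39 SE, adjusted p = 0.045). ALDH6A1, a mitochondrial enzyme of valine breakdown, lies on chromosome 20 (30932325 to 30955386) and had the least spread of the 3. It had 68.9, 64.3 and 56.7 CPM with high cuff pressure, against 168, 165 and 150.4 CPM in control, and was 2.54-fold lower (log2 fold change -1.35 ± 0.19 SE, adjusted p = 0.0183).

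Several ALDH genes of amino acid and lipid metabolism had small log2 fold changes, with unequal spread between libraries. For ALDH3A2, which oxidises fatty aldehydes, ALDH7A1, of lysine breakdown, ALDH5A1, of GABA breakdown, and ALDH9A1, the 95% intervals stayed inside a 2-fold change, with log2 fold changes from -0.24 to -0.07. ALDH3A2 had 46.6, 40.1 and 42.0 CPM with high cuff pressure, against 43.6, 45.2 and 46.1 CPM in control, almost the same level in all 6 libraries. ALDH5A1 spread more, at 43.3, 56.0 and 24.6 CPM with high cuff pressure, against 37.8, 52.25 and 40.3 CPM in control.

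Of the 4 tested enzyme genes whose high cuff pressure libraries lay entirely above the controls, 3 were also ALDHs, and none passed. ALDH16A1, a family member thought to lack catalytic activity in mammals, had 38.0, 87.4 and 43.6 CPM with high cuff pressure, against 30.2, 23.9 and 24.9 CPM in control (log2 fold change 1.10 ± 0.34 SE, adjusted p = 0.0901, and 0.64 without high cuff pressure replicate 2). ALDH4A1, which breaks down proline, had 99.8, 84.8 and 99.0 CPM with high cuff pressure, against 62.5, 58.0 and 68.0 CPM in control (log2 fold change 0.59 ± 0.19 SE, adjusted p = 0.0956). ALDH18A1, which makes proline, had a log2 fold change of 0.49 (adjusted p = 0.182). The other retinal oxidising forms ALDH1A2 and ALDH1A3 overlapped between groups and their sign changed when single libraries were left out (log2 fold changes -0.05 and -0.21). Folate oxidising ALDH1L1 was separated with a log2 fold change of -1.21 (adjusted p = 0.0946).

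**Figure D3:**
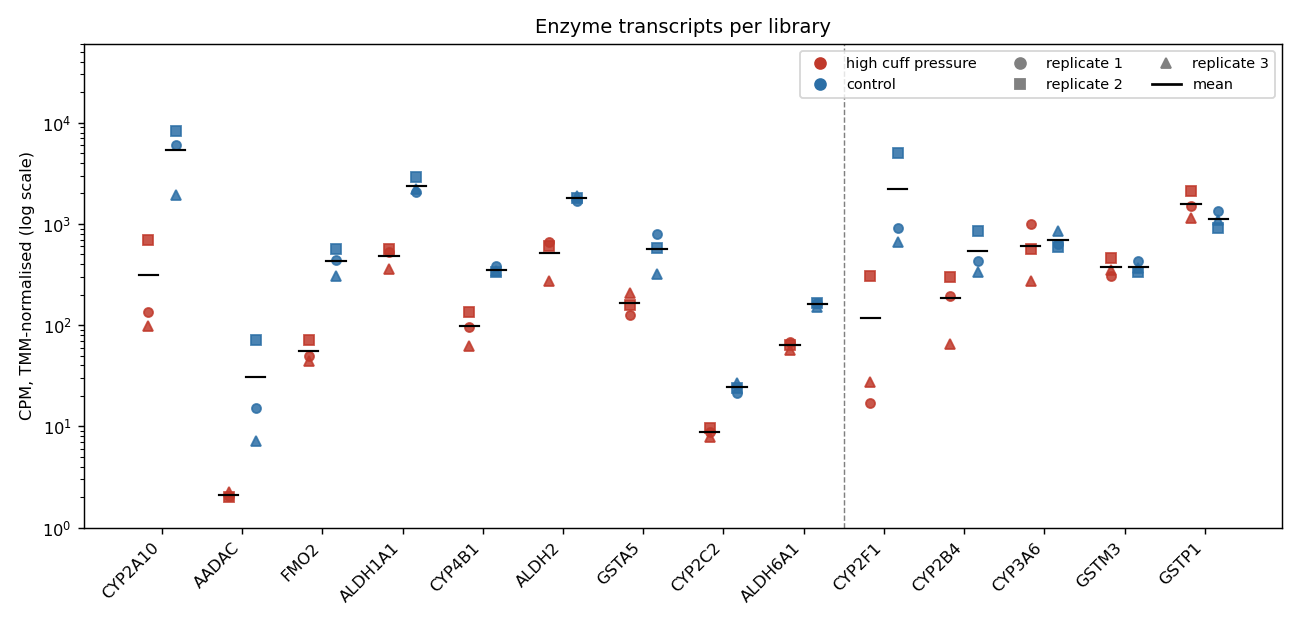
TMM-normalised CPM on a log axis of 14 enzyme genes in each library, with high cuff pressure in red left of control in blue, the symbol giving the replicate and the bar the mean of n = 3. Left of the dashed line are the 9 genes called lower, and right of it abundant or strongly shifted genes that were not called, of which CYP2F1 and CYP2B4 do not overlap between groups, while CYP3A6, GSTM3 and GSTP1 do.

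Of the hydrolases, AADAC, an arylacetamide deacetylase of the endoplasmic reticulum, had 2.07, 2.00 and 2.27 CPM with high cuff pressure, against 15.04, 70.8 and 7.14 CPM in control. The high cuff pressure libraries were level while the controls varied widely, with replicate 2 on top. It was 14.6-fold lower (log2 fold change -3.87 ± 0.84 SE, adjusted p = 0.0466). Its log2 fold change was -2.38 with control replicate 2 left out. The row on chromosome 14 (45753365 to 45921747) spans 168 kb and may cover other genes. CES3, a carboxylesterase, was separated between groups and did not pass (log2 fold change -1.32, adjusted p = 0.110).

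Of the 10 glutathione S-transferases tested, GSTA5 was lower and 0 were higher (1 lower and 0 higher at an unadjusted p under 0.05), and the median log2 fold change was -0.13. GSTA5, of the alpha class that conjugates lipid peroxidation products, had 126, 159.6 and 207 CPM with high cuff pressure, against 796, 575 and 324 CPM in control. The groups did not overlap, and the nearest pair was high cuff pressure replicate 3 and control replicate 3. It was 3.44-fold lower (log2 fold change -1.78 ± 0.38 SE, adjusted p = 0.0428). Its row on chromosome 12 (42318687 to 42643661) spans 325 kb, so reads of other alpha class genes may be included.

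GSTP1, the pi class enzyme abundant in airway epithelium, had 1507, 2116 and 1142 CPM with high cuff pressure, against 1342, 907 and 1103 CPM in control. The groups overlapped, and the log2 fold change was 0.51 with a 95% interval of -0.27 to 1.28 (adjusted p = 0.342). GSTP1 held 24.6%, 27.5% and 26.2% of the enzyme counts with high cuff pressure, and 7.79%, 3.73% and 8.78% in control, without overlap. The enzyme total was itself lower with high cuff pressure, so this share does not measure the GSTP1 level alone.

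GSTM3, of the mu class, had 307, 464 and 351 CPM with high cuff pressure, against 426, 332 and 367 CPM in control, with means of 374 ± 81.1 and 375 ± 47.8 CPM (SD, n = 3 each). Its log2 fold change was 0.00 with a 95% interval of -0.59 to 0.58, inside a 2-fold change. The mu class rows GSTM3 and GSTM2 overlap on chromosome 13, so reads may be shared among them. GSTK1 and GSTO1, of mitochondria and of the cytosol, had log2 fold changes of 0.19 and 0.20 with intervals inside a 2-fold change, and values of -0.21 and -0.19 when libraries were scaled by total counts, a scaling that moved the median of all genes to -0.40. GSTZ1, of tyrosine breakdown, overlapped between groups (log2 fold change -0.38, adjusted p = 0.433), as did GSTA4, which conjugates hydroxynonenal (log2 fold change -0.61).

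Both UGT rows were tested and neither passed, with 0 also at an unadjusted p under 0.05. UGT1A1 had 74.9, 73.4 and 83.8 CPM with high cuff pressure, against 174.5, 38.5 and 59.8 CPM in control, where control replicate 1 stood above all other libraries (log2 fold change -0.23, 95% interval -1.40 to 0.93). UGT2B16 had a log2 fold change of 0.08 with an interval of -0.82 to 0.97. These rows span 205 and 665 kb and may merge several UGT genes.

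Of 8 sulfotransferases 3 were tested, and none was lower or higher (1 lower at an unadjusted p under 0.05). SULT1C3 had 27.8, 1.88 and 0.0758 CPM with high cuff pressure, against 14.1, 23.0 and 244 CPM in control. It varied more within each group than any other of the 15 most abundant enzymes, and control replicate 3 alone carried most of its control reads. The log2 fold change of -3.24 ± 1.62 SE did not pass (adjusted p = 0.224) and was -0.91 without control replicate 3 and -6.74 without high cuff pressure replicate 1. Its neighbour SULT1C4 also overlapped (log2 fold change -1.38, adjusted p = 0.139). SULT4A1, a form best known from brain, had 16, 5 and 8 counts with high cuff pressure and 4, 4 and 2 in control, too few for the test (ratio of TMM-scaled counts 3.73, exact 95% counting interval 1.77 to 8.58). Here too the interval pools the reads of each group and leaves out the spread between libraries.

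The remaining P450s work mainly on sterols, retinoids and vitamin D. Of 17 genes 9 were tested, with 0 lower and 0 higher (0 lower and 1 higher at an unadjusted p under 0.05), and their median log2 fold change was -0.27. CYP27A1, a sterol hydroxylase of mitochondria, and CYP39A1, an oxysterol hydroxylase, had intervals inside a 2-fold change (log2 fold changes -0.27 and -0.24). CYP51A1, a lanosterol demethylase, had a log2 fold change of 0.63 with overlapping groups. CYP26A1, which degrades retinoic acid, had 0.690, 5.30 and 6.44 CPM with high cuff pressure, against 11.2, 12.9 and 9.77 CPM in control, without overlap (log2 fold change -1.44, adjusted p = 0.186). CYP27C1, a retinoid desaturase in human skin, had 11.4, 7.53 and 11.7 CPM with high cuff pressure, against 5.98, 4.57 and 2.70 CPM in control. It was the fourth tested gene with every high cuff pressure library above every control, and the largest positive value among the enzymes (log2 fold change 1.21 ± 0.39 SE, adjusted p = 0.0931).

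Because each transcript has its own length, levels of different genes were compared in FPKM as deposited. With high cuff pressure the order of mean FPKM was GSTP1 (859), ALDH1A1 (236), ALDH2 (200.2), CYP2A10 (159) and GSTM3 (156). In control mucosa it was CYP2A10 (3812), CYP2F1 (1752), ALDH1A1 (1561), ALDH2 (928) and GSTP1 (797). In high cuff pressure mucosa the order of CYP2A10 and GSTM3 changed between libraries (159 ± 164 and 156 ± 24.4 FPKM, SD, n = 3). The order of ALDH1A1 and ALDH2 did so too (236 ± 43.9 and 200.2 ± 80.3 FPKM). In high cuff pressure replicate 2, CYP2A10 (348 FPKM) was above ALDH1A1 (259 FPKM) and ALDH2 (219 FPKM). GSTM3 (154 FPKM) was above ALDH2 (112 FPKM) in high cuff pressure replicate 3. In control CYP2A10 was above CYP2F1 in each library (3843, 6171 and 1422 against 638, 4080 and 540 FPKM). The order of each with ALDH1A1 changed between control libraries (means 3812 ± 2374, 1752 ± 2016 and 1561 ± 389 FPKM). CYP2F1 stood at ranks 5, 2 and 5 in control, so its order with ALDH2 and GSTP1 also changed. The order of ALDH2 and GSTP1 changed as well (928 ± 132 and 797 ± 94.0 FPKM). GSTP1 was the top enzyme transcript in all 3 high cuff pressure libraries and stood at ranks 3, 5 and 4 in the controls. CYP2A10 stood at ranks 6, 2 and 8 with high cuff pressure and 1, 1 and 2 in control, and FMO2 at ranks 22, 22 and 24 with high cuff pressure and 8, 6 and 10 in control. Of the 15 most abundant enzyme transcripts 6 were called lower and 9 were not.

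**Figure D4:**
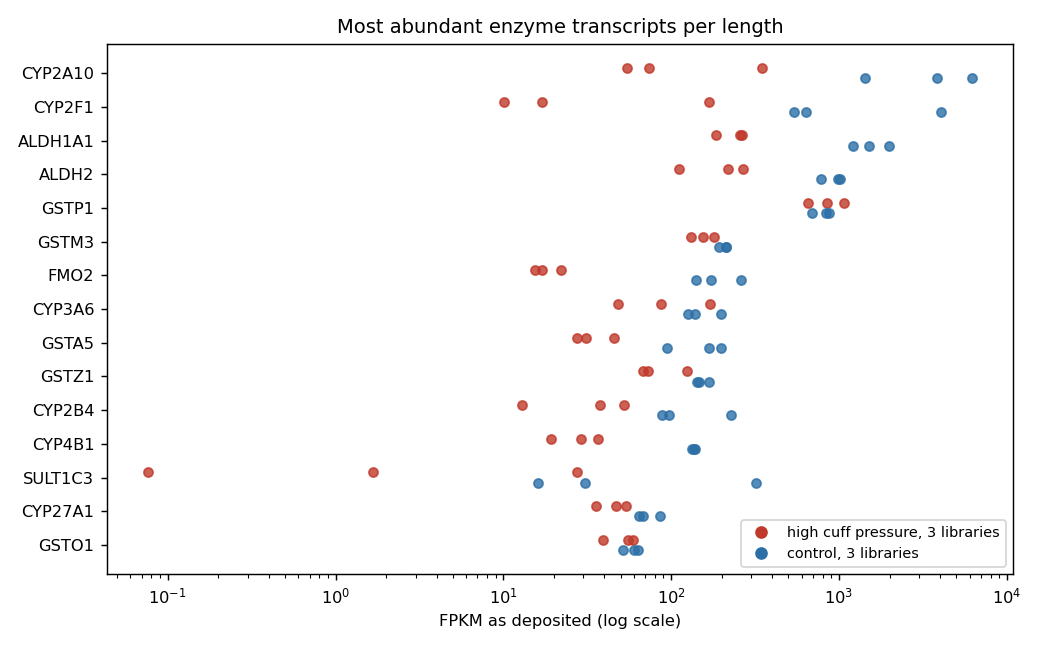
Deposited FPKM (log axis) of the 15 enzyme genes with the highest mean over all libraries, with the 3 high cuff pressure libraries drawn above the 3 control libraries for each gene. FPKM is divided by a total that includes mitochondrial reads, which lowers all other genes in the high cuff pressure libraries, and GSTP1 is the gene at the far right with high cuff pressure (657 to 1075 FPKM) while CYP2A10 is at the far right in control (1422 to 6171 FPKM).

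Spread between libraries differed between groups as well as between genes. Over the 37 enzyme genes with at least 10 CPM on average in both groups, the median coefficient of variation was 34.7% with high cuff pressure and 18.2% in control. The edgeR fit assumed a common spread per gene for both groups, so its intervals do not show this difference. The precision of single genes was also uneven. For 12 tested genes the 95% interval lay inside a 2-fold change in either direction, and genes for which it lay wholly below a 2-fold fall included CYP2A10, CYP2F1, FMO2, ALDH1A1, CYP4B1 and AADAC, of which CYP2F1 was not called. For 43 of the 55 genes not called it reached past 2-fold, so these libraries do not bound their change within 2-fold.

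Several enzyme genes are neighbours, which allows their values to be set side by side. On scaffold GL018789 the order is CYP2S1, CYP2B4, CYP2G1, CYP2A10 and CYP2F1, with gaps of 120 kb, 10.02 kb, 56.8 kb and 33.1 kb. Their log2 fold changes were 0.59, -1.55, -2.33, -4.13 and -4.22 along that order, of which that of CYP2A10 passed. CYP2G1, a P450 known from olfactory mucosa, was near the detection limit at 1.08, 1.06 and 0.227 CPM with high cuff pressure and 1.03, 8.43 and 2.11 CPM in control, and control replicate 2 was the highest.

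On chromosome 13, FMO2, FMO1 and FMO4 lie in that order with gaps of 10.6 kb and 18.4 kb, and had log2 fold changes of -2.99, -0.91 and 0.08. CYP4A5 and CYP4B1 lie 2.77 kb apart on the same chromosome with values of -1.43 and -1.86. SULT1C4 and SULT1C3 lie 12.1 kb apart on chromosome 2 with values of -1.38 and -3.24. Differences between neighbours were not tested, and without a stated counting rule reads near shared edges may be assigned to either.

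**Figure D5:**
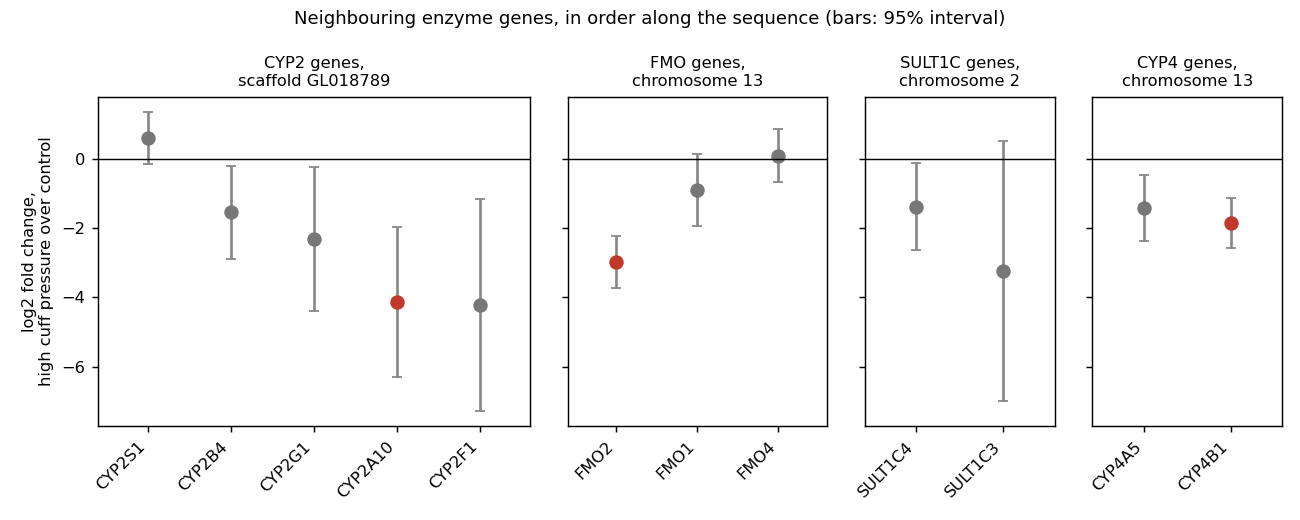
Log2 fold change, high cuff pressure over control, with 95% intervals (n = 3 per group), of neighbouring enzyme genes in their order along the sequence, evenly spaced and not to scale, with red for adjusted p under 0.05. The CYP2 genes run from 0.59 at CYP2S1 to -4.22 at CYP2F1, and the FMO genes from -2.99 at FMO2 to 0.08 at FMO4, with wide intervals at CYP2F1 and SULT1C3.

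Enzymes that supply or extend these reactions were counted from 5 lists. Over all genes tested, 1.62% were called lower and 3.67% higher, and 13.6% and 15.6% at an unadjusted p under 0.05. Among electron supply and other oxidoreductases, 28 of 34 genes were tested, 1 was lower and 0 higher (7 lower and 2 higher at an unadjusted p under 0.05), with a median log2 fold change of -0.50. EPHX1, the microsomal epoxide hydrolase that opens epoxides made by P450s, had 130.3, 199.6 and 91.2 CPM with high cuff pressure, against 423, 409 and 479.6 CPM in control. The groups were far apart (log2 fold change -1.64 ± 0.32 SE, adjusted p = 0.0342). POR, the electron donor of microsomal P450s, had 105, 109 and 128 CPM with high cuff pressure, against 185, 429.8 and 237 CPM in control, also without overlap, and did not pass (log2 fold change -1.32 ± 0.33 SE, adjusted p = 0.0594).

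In other conjugation and cofactor supply, 13 of 15 genes were tested, 1 was lower and 0 higher (3 lower and 0 higher at an unadjusted p under 0.05, median log2 fold change -0.27). UGDH, which makes the UDP-glucuronate that UGTs use, had 177, 138 and 156 CPM with high cuff pressure, against 315, 334 and 336 CPM in control, with close replicates in both groups (log2 fold change -1.06 ± 0.21 SE, adjusted p = 0.0359). Of 11 tested xenobiotic sensors and transcription factors out of 18, 0 were lower or higher (4 lower and 0 higher at an unadjusted p under 0.05, median -0.73). Their log2 fold changes were negative for 8 and positive for 3, from -1.46 to 0.86. The receptor AHR had a log2 fold change of -1.03 (adjusted p = 0.143), the glucocorticoid receptor NR3C1 of -1.46 (adjusted p = 0.0722) and the oxidative stress factor NFE2L2 of -0.92 (adjusted p = 0.109).

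Of 20 tested NFE2L2 target and glutathione genes out of 27, 0 passed (2 lower and 4 higher at an unadjusted p under 0.05, median -0.05). These unadjusted counts are near the shares over all genes tested, 13.6% lower and 15.6% higher. GCLC, which starts glutathione synthesis, had a log2 fold change of -1.13 (adjusted p = 0.0585). The quinone reductase NQO1, counted above among the oxidoreductases, had one of -0.08. SRXN1, which repairs oxidised peroxiredoxins, had one of 1.42 (adjusted p = 0.0736). Of 12 tested transporters out of 17, 0 passed (0 lower and 1 higher unadjusted, median -0.07). Over the 5 lists, DESeq2 called 11 genes lower and 3 higher, and limma-voom 5 lower and 0 higher. Over all 13724 genes tested, the calls were 1170 lower and 1461 higher with DESeq2, and 303 and 520 with limma-voom.

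Markers of other cell types moved beside these results. Their counts stand beside 1.62% called lower and 3.67% higher over all genes tested, and 13.6% and 15.6% at an unadjusted p under 0.05. All 6 tested neutrophil markers were higher (638 to 2509 CPM in sum with high cuff pressure, 4.63 to 22.7 CPM in control), as were 4 of 8 macrophage markers (200.7 to 219.8 and 62.0 to 126 CPM). The other 4 macrophage markers did not pass, and 3 of the 8 had negative log2 fold changes, the lowest -1.05. Of 12 tested multiciliated markers 0 passed (1070.1 to 2934 CPM in sum with high cuff pressure, 3205 to 4480.2 CPM in control), with 3 lower and 0 higher at an unadjusted p under 0.05. Their log2 fold changes were negative for 11 and positive for 1, with a median of -0.54 and a lowest value of -2.11. FOXJ1, the master factor of ciliated cells, was at -0.13.

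Of the 7 secretory and club cell markers measured out of 12, KRT7 was higher and 0 were lower (0 lower at an unadjusted p under 0.05), and the summed level overlapped at 15649 to 32829 CPM with high cuff pressure and 24172 to 53156 CPM in control. The log2 fold changes of these 7 were negative for 5 and positive for 2, with a median of -0.56 and a highest value of 2.71. The club cell secretoglobin SCGB3A2 had a log2 fold change of -0.90 (adjusted p = 0.227), and SCGB1A1, the defining club cell gene, was not analysed here. Of 6 basal cell markers 0 passed (1 lower and 3 higher unadjusted), at 826 to 3128 CPM with high cuff pressure and 689 to 954 CPM in control. Of 9 fibroblast markers 2 were lower (299 to 1636 CPM in sum with high cuff pressure, 1430.4 to 2417 CPM in control). Of 4 plasma and B cell markers 2 were lower (107 to 222 CPM and 478 to 1210.2 CPM). Of 6 smooth muscle markers 0 passed, also at an unadjusted p under 0.05. Of 5 tested submucosal gland markers 0 passed (2 lower and 0 higher unadjusted, median log2 fold change -1.30), at 100.3 to 316 CPM in sum with high cuff pressure and 280.3 to 483 CPM in control. Of 7 endothelial markers 1 was higher and 0 lower (3 higher and 0 lower unadjusted), at 487 to 1083 CPM and 257 to 721 CPM. Of 6 goblet cell markers 0 passed (1 lower and 2 higher unadjusted), at 1177 to 5586 CPM and 2637 to 7216 CPM, and of 5 ionocyte and tuft markers 0 passed, also unadjusted, at 49.9 to 108 CPM and 80.9 to 139 CPM. No marker measured in these lists was at 0 in all libraries. The part of these shifts, and of the mitochondrial share, in the lower enzyme transcripts was not tested, and the 9 calls were as many when mitochondrial genes were left out.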

How the data were processed

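The labels' protocols name polyA libraries and a DNBSEQ-T7 sequencer. StringTie 1.3.3b, HISAT2 2.0.4 and edgeR are listed in the submitters' processing notes without roles. How reads were counted, with which strand setting and on which genome build, was not given in the sources used here. Raw counts per gene, FPKM (per the file headers) and the p-values and q-values of the authors' own comparison were deposited; the FPKM divide by a total that includes mitochondrial reads. The members, gene lists and tests were chosen with earlier results of these data known.

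Counts were analysed in R 4.3.3 with edgeR 4.0.16 (filterByExpr, TMM, glmQLFit with robust estimation, glmQLFTest, Benjamini-Hochberg adjusted p under 0.05). The standard error is the absolute log2 fold change over the square root of F. Named genes were those called, the 15 most abundant by FPKM, the 5 largest uncalled separated shifts per direction and a list of airway enzymes; others complete a family or neighbourhood and were picked after their values were seen. Library totals set the counting precision: 3 counts correspond to 0.193 to 0.353 CPM. Alternatives used limma 3.58.1 and DESeq2 1.42.0. Replicates of a group differed by far more than counting noise (chi-square statistic over its degrees of freedom 56.1 to 137). The test was tested on simulated data. No sequences are printed because none came with the reference table. The result of 1 gene is not reported here.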

Additional observations from a re-analysis of the deposited data

How the results depend on the processing

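Of 623 single-gene alternatives over 33 genes, 534 kept direction and side of the threshold, 48 lost and 23 gained a call, and 18 changed sign. The enzyme calls (9 lower, 0 higher) became 18 and 3 with DESeq2, 17 lower by total counts, and 20 lower by limma-trend on log2(FPKM + 1) or log2(FPKM + 0.1); leaving out 1 library gave 0 to 13 lower and 0 to 1 higher. With the replicate block 5 were lower, 4 of them among the 9. Deviations of same-numbered samples correlated at -0.277 to -0.201, and no sample correlated best with its own number. Control replicate 3 has that number in its library name, but its sample title is S4. With 3 libraries per group such correlations cannot settle whether the numbers pair the samples. The enzyme median was -1.09 by total counts, -0.55 without a filter, and -0.84 and -1.16 on log2(FPKM + 1) and log2(FPKM + 0.1), where all genes moved too (to -0.40, -0.02, -0.35 and -0.41); leave-one-out gave -0.77 to -0.60.

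Over all genes, 503 higher and 222 lower became 1461 and 1170 with DESeq2 and 198 and 46 with the block; total counts gave 1241 lower, log2(FPKM + 1) 1748 lower, log2(FPKM + 0.1) 1448 lower, and log2(FPKM + 1) without a filter 127 higher. Leave-one-out gave 0 to 1362 higher and 0 to 1261 lower. In the related lists, 0 higher and 2 lower became 3 and 11 with DESeq2; lower calls were 13 by total counts, 17 and 14 on log2(FPKM + 1) and log2(FPKM + 0.1), 5 with limma-voom and 1 with the block; leave-one-out gave 0 to 4 higher and 0 to 11 lower. The causes were not tested.

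Sign changes: GSTK1 had -0.21 by total counts, -0.22 on log2(FPKM + 1), with or without a filter, and -0.23 on log2(FPKM + 0.1); GSTO1 had -0.19, -0.20 and -0.21. Leave-one-out moved GSTM3 between -0.18 and 0.12, CYP3A6 between -0.73 and 0.16, ALDH1A2 between -1.06 and 0.29, GSTK1 between -0.027 and 0.33 and ALDH1A3 between -0.93 and 0.20.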

Other observations

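Rows without a symbol were not members even where their description names an enzyme of these families. The row described as liver carboxylesterase 1 precursor, an ester-cleaving enzyme, had 1149, 978 and 233 CPM with high cuff pressure, against 3648, 3722 and 3412 CPM in control, and did not pass (log2 fold change -2.19 ± 0.57 SE, edgeR adjusted p = 0.0615). Its deposited FPKM averaged 205 ± 127 with high cuff pressure and 1251 ± 114 in control (SD, n = 3 each), a control level between those of ALDH1A1 and ALDH2. The row described as cytochrome P450 2A11, a close relative of CYP2A10, had 0.296, 1.88 and 19.0 CPM with high cuff pressure, against 50.6, 0.129 and 1.68 CPM in control. It was high in high cuff pressure replicate 3 and in control replicate 1, and the groups overlapped (log2 fold change -1.28 ± 1.75 SE, adjusted p = 0.658).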
